A study of Mus musculus with 2 samples.

Results

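Pi16-positive fibroblasts of mouse ear skin were described in allergic contact dermatitis (ACD) and in healthy skin. A barcode was counted as a member when it held at least 1 UMI (a counted RNA molecule) of Pdgfra, no UMI of Ptprc, at least 3 UMIs of Pi16, at most 2 UMIs of Gdf10 and C7 together and at most 2 UMIs of Cyp2f2. The rule gave 776 members among 23878 kept barcodes, 419 of 12213 in the control library and 357 of 11665 in the ACD library. The members were thus chosen by their measured levels of these 6 genes, so the values of those genes are given as a description.

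Pi16 encodes a secreted peptidase inhibitor and marks fibroblasts of the adventitia and deep fascia that lie around vessels in many tissues. Such cells are regarded as a reserve of fibroblast and fat precursors and usually carry the cell-surface protease Dpp4, the guidance factor Sema3c and the microfibril protein Mfap5. Fibroblasts bear receptors for interferon gamma and for interleukins, and answer interferon gamma with antigen-presentation genes, guanylate-binding proteins and the chemokines Cxcl9 and Cxcl10.

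Each library came from ear skin of outbred ICR mice aged 7 to 8 weeks, with 1 library per group and the number of mice pooled in each not given in the sources used here. For ACD, the hapten DNFB was painted on the back at 1.0% and again on the ear at 0.2% on day 6, and the ear was taken 60 hours after this elicitation. The control library came from healthy ear skin. Cells were freed with collagenase D and DNase1, dead cells were depleted, and 3′ droplet libraries were sequenced.

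With 1 library per group no test between the conditions was possible, and library, digestion and condition cannot be told apart. Intervals in parentheses are 95% intervals for counting error only (exact Poisson for levels, exact conditional for log2 ratios, Clopper-Pearson for shares). Levels are UMIs per 1000000 UMIs of the members. The members held 3882892 UMIs in control and 4452987 in ACD. Their median depth was higher in ACD, at 11445 UMIs and 3082 genes per cell against 8231 UMIs and 2599 genes in control. The libraries shared 50 barcode sequences, and no barcode was a member in both.

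Members made up 3.43% (3.12 to 3.77) of kept barcodes in control and 3.06% (2.76 to 3.39) in the ACD library, which gave a log2 ratio of -0.16 (-0.37 to 0.04). Among Pdgfra-positive, Ptprc-negative barcodes their share was 7.55% (6.87 to 8.28) in control and 10.8% (9.80 to 11.96) in the ACD library, which gave a log2 ratio of 0.52. The direction therefore depended on the denominator. The same Pdgfra-positive pool went from 45.4% of kept barcodes in control to 28.2% in ACD. Fibroblasts with at least 3 UMIs of Gdf10 and C7 numbered 112 in control and 29 in ACD, and those with at least 3 UMIs of Cyp2f2 numbered 743 and 211. The member share depended on a Pi16 count in each cell, and depth differed between the libraries. Thinning every cell to 3000 UMIs before the rule was applied left 148 members in control and 100 in ACD, a log2 ratio of -0.49.

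The members carried the genes of fibroblasts. A UMI of Col1a2 was found in all members of both libraries, and a UMI of decorin (Dcn) in 419 of 419 control and 355 of 357 ACD members. The progenitor genes Ly6a, which encodes Sca-1, and Cd34 were found in 371 and 394 control members and in 325 and 334 ACD members. The remaining label markers were less complete. A Mfap5 UMI was present in 76.8% (72.5 to 80.8) of the control and 61.6% (56.4 to 66.7) of the ACD members, Sema3c in 47.7% and 37.8%, and Dpp4 in 23.9% and 17.6%. Their levels were 666 in control and 441 in ACD for Mfap5, 122 and 85.1 for Sema3c and 46.1 and 25.2 for Dpp4. The Sema3c log2 ratio, -0.52, turned to 0.39 with every cell thinned to 3000 UMIs. None of these 3 markers had a UMI in 12.9% of control members and in 28.9% of ACD members.

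Pi16 itself stood at 1240 UMIs per 1000000 in control and 944 in ACD. In both libraries the median member had few Pi16 UMIs, 6 in control and 7 in ACD, and the highest members had 136 and 202. At the threshold, 96 control and 76 ACD members had exactly 3 Pi16 UMIs, and 154 and 105 barcodes with 2 Pi16 UMIs lay just outside. Members at 3 Pi16 UMIs held Mfap5 at 363 in control and 239 in ACD, and B2m at 541 and 3252. The barcodes just outside held Mfap5 at 291 and 234, and B2m at 490 and 3182.

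The rule took in several kinds of cell. After their values had been seen, the members were divided into those with at least 10 UMIs of Coch (Coch-rich), others with at least 10 UMIs of Angptl7 and Chad together (Angptl7/Chad-rich), others with at least 3 UMIs of Mfap5 (Mfap5-positive) and the rest. Coch encodes cochlin, a matrix protein best known from the inner ear, and Chad encodes chondroadherin, a cartilage matrix protein. Coch-rich cells numbered 43 in control, 10.3% (7.53 to 13.6) of the members, and 121 in ACD, 33.9% (29.0 to 39.1). Mfap5-positive cells numbered 194 in control (46.3%) and 138 in ACD (38.7%), Angptl7/Chad-rich cells 73 (17.4%) and 48 (13.4%), and the rest 109 and 50.

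**Figure D1:**
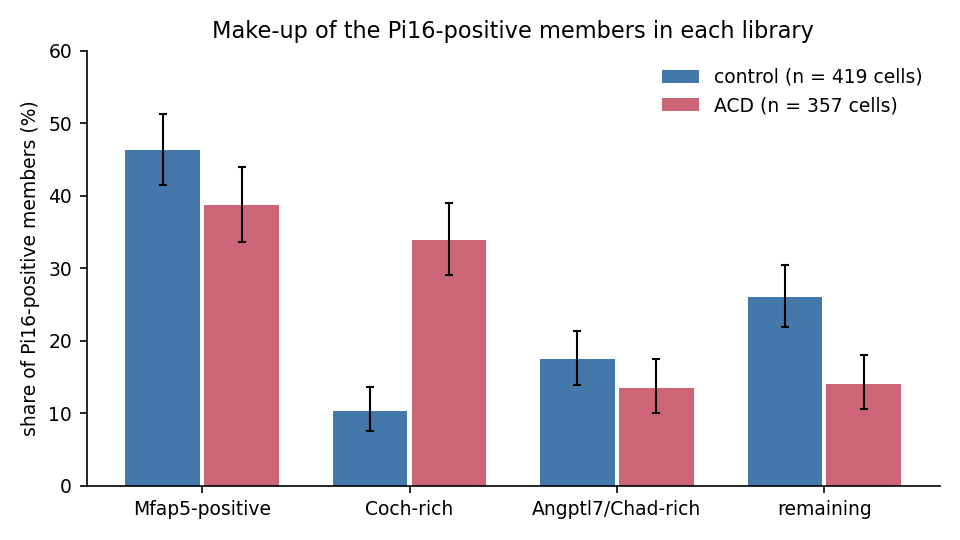
Share of the Pi16-positive members (%) in each subset, for the control library (419 cells) and the ACD library (357 cells). Bars are shares and lines their 95% Clopper-Pearson intervals, which cover counting error only; the Coch-rich share was 10.3% in control and 33.9% in ACD.

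Part of the Coch-rich cells lacked the label markers other than Pi16. No UMI of Dpp4, Sema3c or Mfap5 was found in 16 of 43 Coch-rich members in control and in 79 of 121 in ACD. Their level of Dpp4 was 11.6 in control and 11.3 in ACD, against 66.7 and 43.1 in the Mfap5-positive cells. They also held the retinoic-acid-binding protein Crabp1 at 2231 in control and 1614 in ACD, and 118 of the 163 ACD members with a Coch UMI had a Crabp1 UMI as well. Over all members the level of Coch was 1439 (1401 to 1477) in control and 3874 (3816 to 3932) in ACD, with a log2 ratio of 1.43. Within the Coch-rich cells it was 15954 in control and 13832 in ACD, a log2 ratio of -0.21 (-0.25 to -0.16). The subset is cut on Coch UMIs, so the level inside it cannot tell a difference in number from one in level. Without the cut at 10 UMIs, members carrying any Coch UMI numbered 85 of 419 (control) and 163 of 357 (ACD). Median depth in the Coch-rich subset was 7289 UMIs in control and 9336 in ACD. The part of depth in the number of Coch-rich cells was not tested. Markers of other cells moved in this subset too. The 9 keratinocyte genes summed to 90.1 in control and 439 in ACD, with 4 of 5 measured genes past the upper fold. In the Mfap5-positive cells they summed to 413 and 106, with 4 of 5 past the lower. The share of all measured genes past the fold in each subset is not given here. The part of these markers in the results was not tested.

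The Mfap5-positive cells held more of the other progenitor genes, with Cd34 at 1136 in control and 879 in ACD, Ly6a at 2898 and 4071 and Clec3b at 2310 and 1739. Because the make-up of the members differed between the libraries, results are given below for the members as a whole and, where a gene's pattern turns on it, within the subsets.

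The members were also set beside other fibroblasts, as a description. Apart from Pi16, a gene of the rule, the 10 genes with the highest level relative to the other Pdgfra-positive, Ptprc-negative barcodes in both libraries, a mixed pool that also holds cartilage cells, were Coch, Mfap5, Ifi27l2a, Sfrp4, Has1, Opcml, Crabp1, Lrrn4cl, Tmeff2 and Adgrd1. Among them was the hyaluronan synthase Has1, at 296 in members and 68.9 in the other cells of the control library and at 236 and 70.1 in ACD. The neural adhesion gene Opcml stood at 128 and 37.3 in control and at 60.2 and 13.1 in ACD, and Lrrn4cl at 246 and 68.9 in control and 166 and 51.1 in ACD. The interferon-inducible Ifi27l2a was above the other cells in control already, at 218 against 30.4, and in ACD at 492 against 128. Coch stood at 1439 in members and 275 in the other cells of control, and at 3874 and 601 in ACD. It was thus higher in ACD in the other cells too.

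Across all genes, the ACD members differed from the control members mostly through genes that were higher. For ranking, 10 UMIs per 1000000 were added to each level before the log2 ratio was taken, which damps genes with few UMIs, and this value is called the damped log2 ratio. Among 9358 genes with at least 50 UMIs over both libraries, 102 (1.09%) were at least 2-fold higher in ACD on this scale and 31 (0.331%) at least 2-fold lower. The median over all measured genes was -0.05. Several of these genes rested on few cells, since 19 of the 102 higher genes had over 50% of their ACD UMIs in 5 cells, and 14 of the 31 lower genes had over 50% of their control UMIs in 5 cells.

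**Figure D2:**
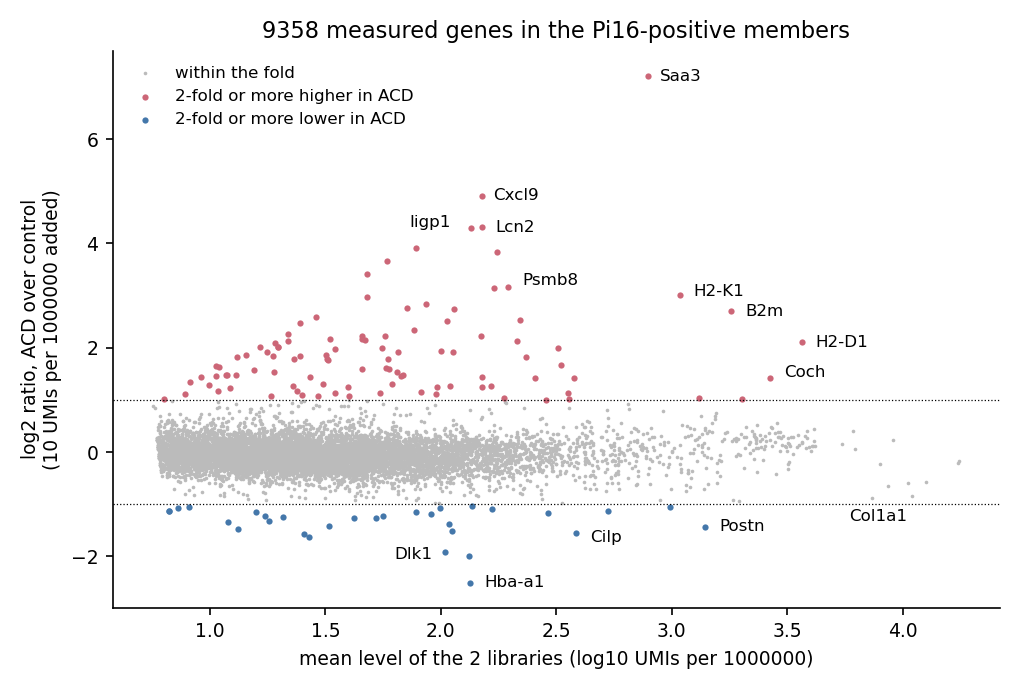
Damped log2 ratio of ACD over control against the mean level (log10 UMIs per 1000000) for each of the 9358 measured genes in the Pi16-positive members. Dotted lines mark the 2-fold limits; 102 genes lie at or above the upper line and 31 at or below the lower line, and Saa3, Cxcl9, Lcn2 and Iigp1 are highest.

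Genes that load peptides on MHC class I were higher across the whole population. Of 19 measured genes of this list, 16 passed the fold and none was lower, with a median damped log2 ratio of 1.92. H2-K1, a classical class I heavy chain (mm10 chr17:33996017-34000347), had 890 UMIs in control and 8598 in ACD. Its level was 229 (214 to 245) in control and 1931 (1890 to 1972) in ACD, with a log2 ratio of 3.07 (2.97 to 3.18). Most cells took part: the median member had 1.81 H2-K1 UMIs per 10000 in control and 18.1 in ACD, and the lower quartile in ACD, 10.7, lay above the upper quartile in control, 3.34.

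B2m, the light chain of class I, followed at 474 (452 to 496) in control and 3141 (3090 to 3194) in ACD, and H2-D1, the other main classical heavy chain, at 1373 (1337 to 1411) and 5942 (5870 to 6014). With a gain of 4568 UMIs per 1000000, H2-D1 gained the most of all measured genes. The immunoproteasome subunits Psmb8 and Psmb9, which shape the peptides, stood at 31.2 (25.9 to 37.2) and 10.8 (7.80 to 14.6) in control and at 360 (343 to 378) and 131 (121 to 142) in ACD. The peptide transporter Tap1 had one of 3.005 (2.53 to 3.52). Reads of the class I heavy chains can fall on several near-identical genes, so the split among them is uncertain.

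Every measured guanylate-binding protein and immunity-related GTPase, proteins that attack the vacuoles of intracellular pathogens, passed the fold in ACD (13 of 13, median 1.83). Iigp1 was the highest, with 16 UMIs in 9 control members and 1190 UMIs in 150 ACD members, a log2 ratio of 6.02 (5.31 to 6.83). Gbp2 had a level of 24.7 (20.03 to 30.2) in control and 188 (176 to 202) in ACD. Gbp4 went from 4 UMIs to 252, Igtp from 22 to 269 and Ifi47 from 7 to 167.

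The per-cell level of this list spread widely in ACD. The summed level was 0 in 244 of 419 control members and in 50 of 357 ACD members, with a median in ACD of 3.36 and a highest value of 86.7 UMIs per 10000. After each cell had been thinned to 2000 UMIs, Iigp1 had a UMI in 0.716% of control and 22.7% of ACD members (2.15% and 42.0% without thinning). In Acan-positive cartilage cells, used to gauge free RNA, it was found in 0.125% and 2.01% after the same thinning. These cells (at least 3 UMIs of Acan, none of Pdgfra or Ptprc) had a median depth of 8061.5 UMIs in control and 9580 in ACD.

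**Figure D3:**
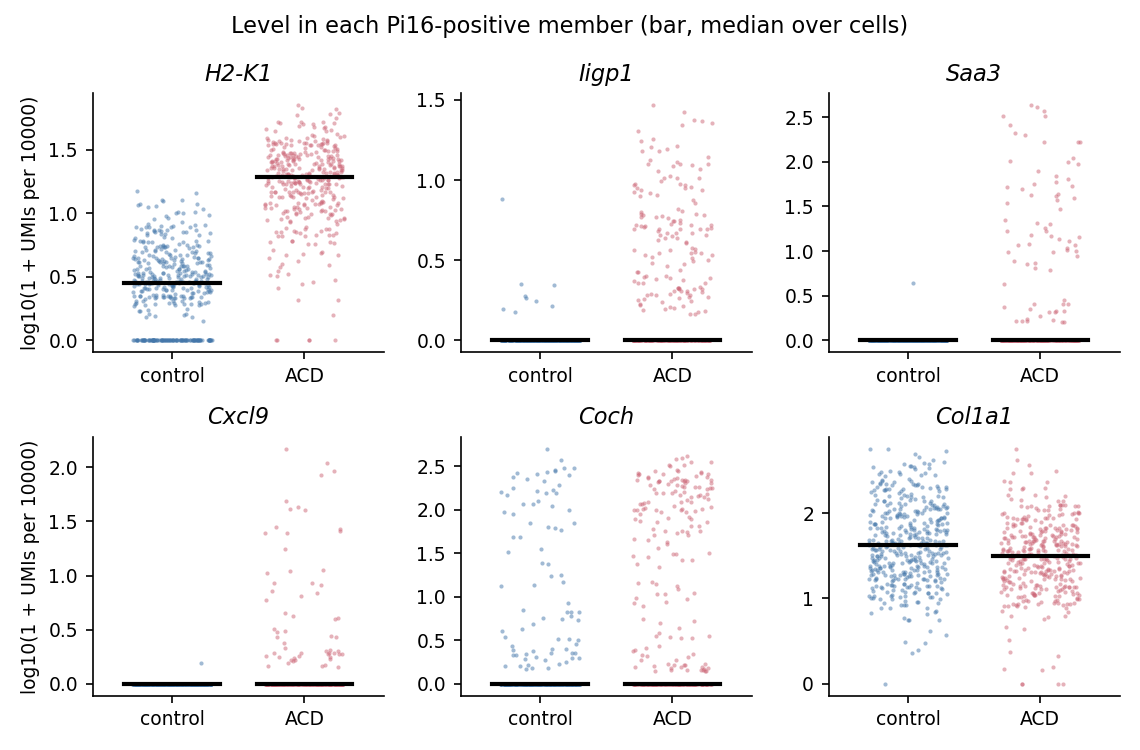
Level of 6 genes in each Pi16-positive member, as log10(1 + UMIs per 10000), with 419 control and 357 ACD cells as points and the median over cells as a bar. H2-K1 is shifted in nearly the whole population, Iigp1, Saa3 and Cxcl9 are present in a part of the ACD cells, Coch falls into a high and a low group in both libraries, and Col1a1 is moderately lower in ACD.

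The 250 bases before the start of these genes were searched on both strands for the letters of binding motifs, in RefSeq windows on GRCm38.p6: the core of the interferon-stimulated response element (GAAA followed by GAAA 2 bases on) and the kappaB consensus. Of the 13 GTPase genes 8 had a window, and 7 of these held the core letters, against 3.06% of the 7221 measured genes with a window. Of 17 class I genes with a window, 3 held the core letters and 8 the kappaB letters, the latter held by 7.27% of measured genes. A match in letters is a description and not evidence of binding.

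Windows of Gbp2 and B2m, both past the fold, are printed with motif letters in capitals. Both held the core letters, and that of B2m also the kappaB letters. That of Gbp2 (chr3:142620413-142620662, plus strand) held the core on the opposite strand, 59 bases before the start. That of B2m (chr2:122147437-122147686, plus strand) held the core 139 bases before the start. Its kappaB letters lay on the opposite strand, 126 bases before the start.
Gbp2: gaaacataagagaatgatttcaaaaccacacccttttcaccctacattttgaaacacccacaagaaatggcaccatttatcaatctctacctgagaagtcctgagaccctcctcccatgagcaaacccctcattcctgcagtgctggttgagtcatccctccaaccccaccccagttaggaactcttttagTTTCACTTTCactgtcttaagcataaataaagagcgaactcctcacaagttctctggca
B2m: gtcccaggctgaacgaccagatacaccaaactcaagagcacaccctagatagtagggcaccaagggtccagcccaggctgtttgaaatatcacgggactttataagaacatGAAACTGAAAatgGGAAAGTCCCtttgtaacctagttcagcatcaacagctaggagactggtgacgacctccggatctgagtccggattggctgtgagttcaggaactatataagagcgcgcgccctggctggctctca

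Antiviral interferon-stimulated genes moved less evenly, with 10 of 27 measured genes past the upper fold, none past the lower, and a median of 0.62. Bst2, which tethers budding virus, had the largest damped log2 ratio of the list, at 22.4 (17.9 to 27.6) in control and 207 (193 to 220) in ACD. The nucleic-acid sensor Zbp1 went from 7 UMIs to 168 and the ubiquitin-like Isg15 from 19 to 185. Ifitm3, at 1324 in control, was among the 8 largest gains with 2704 in ACD. Other members of the list stayed within the fold, such as Ifit2 with 56 UMIs in control and 49 in ACD and Eif2ak2 with 94 and 82.

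The receptors and signal carriers upstream of these genes were mostly within the fold. Ifngr1 and Ifngr2, the chains of the interferon gamma receptor, stood at 96.8 and 36.3 in control and at 99.5 and 32.1 in ACD, log2 ratios of 0.04 (-0.16 to 0.24) and -0.18 (-0.52 to 0.17). In the list of interferon receptors, their signal carriers and feedback inhibitors, 2 of 18 measured genes passed the fold and the median damped log2 ratio was 0.26. Irf7, a transcription factor of the type I interferon response, was among them, at 9.27 (6.49 to 12.8) in control and 36.6 (31.2 to 42.7) in ACD. The inhibitor Socs1 had a log2 ratio of 0.87 (0.71 to 1.04) and Irf9 one of 1.41 (0.93 to 1.91).

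None of the 22 measured cytokine receptors and none of the 21 measured cytokines passed the fold. The interleukin-1 receptor Il1r1 stood at 83.2 in control and 84.7 in ACD, Il17ra at 33.2 and 33.0, Il13ra1 at 59.0 and 64.7, and the TNF receptor Tnfrsf1a at 124 and 114. Il4ra had a log2 ratio of 0.44 (0.04 to 0.84). Among the ligands, Il6 stood at 47.4 and 76.1, and its log2 ratio of 0.68 turned to -0.48 without members carrying markers of other cell classes. Furthest from 0 among the receptors was Il1r2, the decoy receptor for interleukin 1, at 359 (340 to 378) in control and 189 (176 to 202) in ACD. Il1b was outside the measured genes, with no UMI in control and 46 in ACD, 80.4% of them in 5 cells.

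The largest ratio of all was that of Saa3, on the list of acute-phase and innate-defence genes. As a whole the list had UMIs in all 357 ACD members and all but 5 control members, at a median of 15.2 UMIs per 10000 in control and 28.4 in ACD, while Saa3, Lcn2 and Hp were found in some cells. Of 17 measured genes of this list 10 passed the fold, with a median of 1.53. Saa3, a serum amyloid A that attracts leukocytes (mm10 chr7:46711998-46715700), was the most extreme. It had 3 UMIs in 1 control member and 7046 UMIs in 74 ACD members, a log2 ratio of 11.00 (9.45 to 13.28), and 39.0% of the ACD UMIs were in 5 cells. Lcn2, which withholds iron from bacteria, went from 21 UMIs to 1312 and Plac8 from 55 to 1494. The chitinase-like Chil1 had a log2 ratio of 2.44 (2.22 to 2.68), with 58.7% of its ACD UMIs in 5 cells. Haptoglobin (Hp) went from 7 UMIs to 186, of which 75.8% were in 5 cells.

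After thinning to 2000 UMIs, Saa3 had a UMI in 0.239% of control and 15.7% of ACD members (0.239% and 20.7% without thinning) against 0 of 1595 cartilage cells in control, which allows a share of up to 0.188%, and 1.14% in ACD. Lcn2 was found in 11.5% of ACD members and 2.19% of ACD cartilage cells. Without thinning, 51 of the 74 ACD members with Saa3 also had Lcn2 and 50 had Plac8, against 89 and 120 of all 357. Depth differed between these cells, and its part in the overlap was not tested. These genes lay chiefly outside the Coch-rich cells. In ACD, Saa3 stood at 2934 in the Mfap5-positive cells, 1947 in the rest, 193 in the Coch-rich and 171 in the Angptl7/Chad-rich cells. Lcn2 stood at 570 in the Mfap5-positive and 29.8 in the Coch-rich cells, and Plac8 at 573 and 33.0.

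By contrast, class I genes were highest in the Coch-rich cells of ACD. H2-K1 stood at 2584 there against 1809 in the Mfap5-positive cells, and Psmb8 at 577 against 291. The GTPase list summed to 999 in the Coch-rich and 982 in the Mfap5-positive cells. The log2 ratio of H2-K1 was between 2.78 and 3.96 in all 4 subsets and that of B2m between 2.33 and 3.44. Without the Coch-rich and Angptl7/Chad-rich members, 15 of 18 measured class I genes and 11 of 11 GTPases passed the fold.

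**Figure D4:**
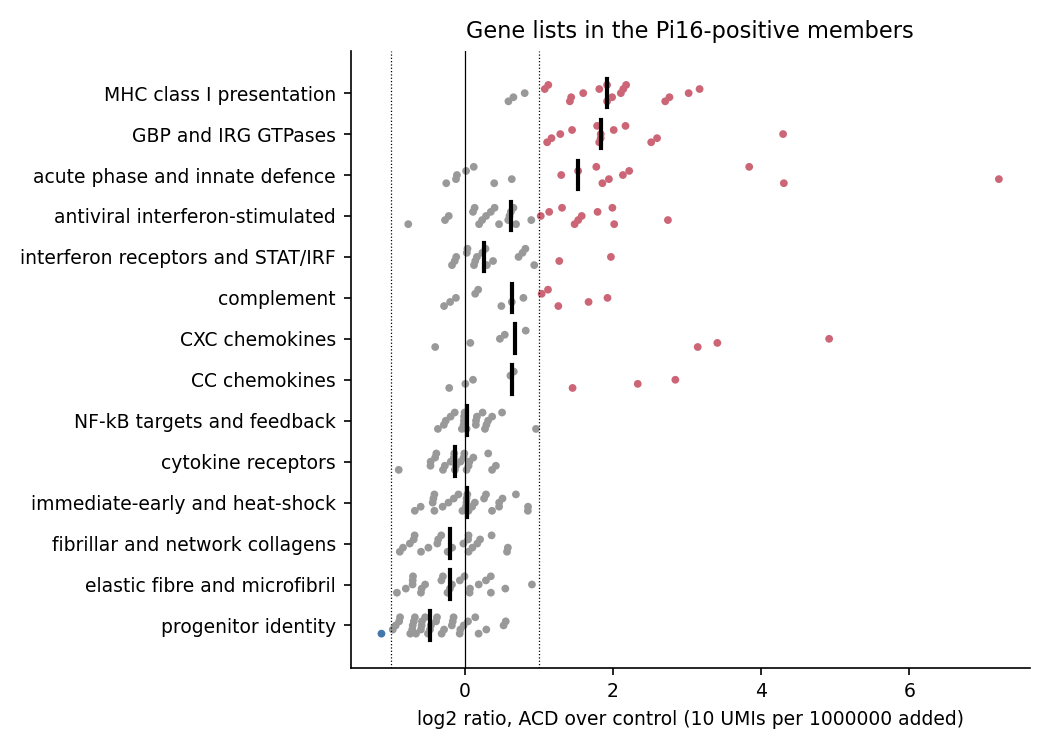
Damped log2 ratio of ACD over control in the Pi16-positive members for the measured genes of 14 lists, 1 point per gene, with the list median as a bar and the 2-fold limits as dotted lines. The medians of MHC class I (1.92), GTPases (1.83) and acute-phase genes (1.53) lie above the upper limit, that of cytokine receptors is -0.13, and that of progenitor identity genes is -0.47.

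Among chemokines, 3 of 8 measured CXC and 3 of 8 measured CC genes passed the fold, and none was past it in the other direction. Cxcl9, a ligand of CXCR3 that draws T cells (mm10 chr5:92321347-92328079), had 1 UMI in control and 1335 UMIs in 60 ACD members, and 61.4% of them were in 5 cells. After thinning to 2000 UMIs it was found in 0 of 419 control members, which allows a share of up to 0.716%, in 9.52% of ACD members (16.8% without thinning) and in 0.437% of ACD cartilage cells. Cxcl10, with the same receptor, stood at 26.5 (21.7 to 32.2) in control and 313 (296 to 329) in ACD, with 57.0% of the ACD UMIs in 5 cells. Of the 60 ACD members with Cxcl9 before thinning, 28 had Cxcl10 and 21 had Saa3, and the part of depth was not tested.

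Among the CC chemokines, Ccl8 went from 53 UMIs to 710 and Ccl19, a ligand of CCR7, from 72 to 596, in 119 and 130 ACD members. The monocyte attractant Ccl2 was plentiful already in control, at 409 (389 to 429), and stood at 652 (628 to 676) in ACD. The eosinophil attractant Ccl11 stood at 87.3 and 139, and Cxcl12, made by many fibroblasts, at 332 and 487. These last 3 stayed within the fold. Without members carrying 3 or more UMIs of markers of other cell classes, the log2 ratio of Ccl2 turned from 0.67 to -0.34 and that of Cxcl12 from 0.55 to -0.33.

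Ccl3, Ccl4 and Cxcl5 also ranked among the 12 highest genes, but rested on a few cells. A single ACD member held 382 of 428 Cxcl5 UMIs. The 5 highest ACD members held 502 of 521 Ccl3 UMIs and 635 of 692 Ccl4 UMIs. After thinning, Ccl4 was found in 3.64% of ACD members against 2.27% of ACD cartilage cells. Cd74 and the class II chains were higher too (3 of 4 measured class II genes past the fold). Cd74 was found in 6.72% of ACD members against 14.3% of ACD cartilage cells, and the part of free RNA was not tested. In ACD the class II list summed to 585 in the Angptl7/Chad-rich, 159 in the Mfap5-positive and 62.1 in the Coch-rich cells. It summed to 81.9 in the rest.

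Of 13 measured complement genes 5 passed the fold, 8 stayed within it, and 3 of these were below 0, with a median of 0.63. The factor B gene Cfb had a level of 21.4 (17.0 to 26.5) in control and 109 (99.7 to 119) in ACD. C1s1 stood at 152 and 507 and C4b at 92.7 and 236. Timp1, which inhibits matrix metalloproteinases, stood at 57.4 (50.1 to 65.5) and 382 (364 to 400). Of the 21 measured NF-kB targets and the 27 immediate-early and heat-shock genes none passed the fold, with medians of 0.02 and 0.02. Vim and Fth1, encoding vimentin and ferritin heavy chain, were among the 8 largest gains in UMIs with log2 ratios of 0.40 and 0.24.

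Markers of immune cells were near 0 in the members, and the sums of these markers over all members were higher in ACD. The rule left out barcodes with a UMI of the leukocyte gene Ptprc, so low levels were partly set by the selection. The 12 macrophage and dendritic-cell markers summed to 9.79 in control and 30.5 in ACD. Adgre1 and Flt3 were at 0 in both, C1qc at 0 in control only, and C1qa and Mrc1 at 0 in ACD only. The 10 T and NK markers summed to 21.6 and 38.4 over all members. They summed to 2.90 and 42.7 in the Coch-rich, 3.52 and 52.2 in the Angptl7/Chad-rich and 7.52 and 14.2 in the rest. In the Mfap5-positive cells they summed to 39.2 and 37.3. The 1 measured gene among these markers had a damped log2 ratio of -0.10 over all members. Leaving out members with at least 3 UMIs of markers of other cell classes kept 203 control and 143 ACD members. In them 16 of 17 measured class I genes and 6 of 6 measured GTPases passed the fold, and H2-K1 had a log2 ratio of 3.21.

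Genes that were lower in ACD were fewer (31 of 9358, 0.331%), and several of the 12 lowest were genes of other cells. Summed over all members, the 5 red-cell genes stood at 465 in control and 85.8 in ACD, and 11 cartilage genes at 1464 and 1113. The cartilage sum was higher in ACD in the rest, at 444 and 756. It was lower in the Coch-rich (1630 and 610), Angptl7/Chad-rich (4900 and 4557) and Mfap5-positive cells (315 and 195). The 8 glial and melanocyte genes stood at 177 and 112, 10 mural-cell genes at 171 and 111 and 10 endothelial genes at 34.8 and 12.4. The 9 keratinocyte genes stood at 257 and 208 (higher in the Coch-rich and lower in the Mfap5-positive cells, as given above). The part of such cells in the lower genes was not tested beyond the values given here. The haemoglobin genes Hba-a1 and Hbb-bs, of red cells, had 911 and 844 UMIs in control, of which a single member held 686 and 545. Without the 5 highest members of each library their log2 ratios turned to 0.29 and 0.087. A single control member held 87 of the 94 UMIs of the melanocyte gene Dct, and 5 held 173 of 177 UMIs of Ccl21a and 78 of 83 of the pericyte gene Rgs5. Without the 5 highest members, Dct and Ccl21a turned to log2 ratios of 0.54 and 2.61. Col2a1, of cartilage, and 3110079O15Rik had 69.6% and 66.5% of their control UMIs in 5 members. The log2 ratio of 3110079O15Rik turned to 0.39 without the barcodes that Scrublet called doublets, that of Rgs5 to 0.23 among members with a Dpp4 UMI, and that of Col2a1 to 0.71 without the Coch-rich and Angptl7/Chad-rich members.

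The other lowest genes belonged to fibroblasts and their matrix. Postn encodes periostin, a matricellular protein of collagen-rich tissue (mm10 chr3:54361109-54391037). It had a level of 2036 (1991 to 2081) in control and 749 (724 to 775) in ACD, with a log2 ratio of -1.44 (-1.501 to -1.384). It was lower within the Mfap5-positive cells (log2 ratio -1.40), the Angptl7/Chad-rich cells (-1.37) and the rest (-1.61), but not in the Coch-rich cells, at 439 in control and 576 in ACD.

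Cilp, a matrix protein that binds growth factors, stood at 580 (556 to 604) in control and 192 (179 to 205) in ACD. Cthrc1, a secreted protein of activated fibroblasts, stood at 170 (158 to 184) and 52.8 (46.2 to 59.97), and the glutaminyl cyclase Qpct at 162 (150 to 175) and 55.9 (49.2 to 63.3). The Notch-family protein Dlk1, which holds fat precursors undifferentiated, stood at 170 (158 to 184) and 37.7 (32.2 to 43.9). It was carried by 72 control and 17 ACD members, and its log2 ratio was 0.41 among members that also had a Dpp4 UMI. The Wnt antagonist Sfrp2 had a log2 ratio of -1.22 (-1.35 to -1.10).

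Collagens made up large amounts of the members' RNA and 3 of the 8 largest losses in UMIs. Col1a2 lost the most, from 14028 (13910 to 14146) to 7859 (7777 to 7942), followed by Sparc, a collagen-binding protein, from 15069 to 10131. Col1a1 went from 9518 to 5173, Col3a1 from 12728 to 8442 and the actin-severing protein gelsolin (Gsn) from 10586 to 6737. Dcn and the nuclear RNA Malat1 went from 18668 to 16521 and from 18518 to 16086. None of the 22 measured genes of the collagen list passed the fold, with a median of -0.20.

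The size of the collagen difference depended on which cells were counted. The Col1a1 log2 ratio was -0.88 over all members, -0.97 in the Mfap5-positive cells and -0.34 in the rest, but -0.13 when every cell was thinned to 3000 UMIs before the rule was applied. It was -0.41 without members carrying 3 or more UMIs of markers of other cell classes. After the thinning Col3a1 turned to 0.027 and the collagen list had a median of 0.027.

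Genes of progenitor identity tended to be lower, with 28 of 34 measured genes below 0, a median of -0.47 and 1 gene past the fold. With every cell thinned to 3000 UMIs the median was -0.21 over 26 measured genes and none was past the fold. The gene past the fold over all members was Pcolce2, an enhancer of procollagen processing, at 727 (701 to 755) in control and 328 (311 to 345) in ACD. Igfbp6, which binds IGF2, stood at 2559 and 1335, Clec3b at 1710 and 1041, Opcml at 128 and 60.2, and Wnt2 at 43.8 and 19.1. Ly6a, itself inducible by interferon, went the other way at 2057 and 2516, but had a log2 ratio of -0.028 without members carrying markers of other cell classes. Wnt2 turned to 0.27 with every cell thinned to 3000 UMIs.

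The list was below 0 at the median in each subset, at -0.29 in the Coch-rich, -0.26 in the Angptl7/Chad-rich, -0.37 in the Mfap5-positive cells and -0.52 in the rest. Past the lower fold were 7 genes in the Coch-rich cells and 5 in the rest, and past the upper fold 3 in the Coch-rich and 1 in the Mfap5-positive cells. The share of all measured genes past the fold in each subset is not given here, so these counts have no background. The Coch-rich cells numbered 43 in control. There, 7 of 27 TGF-beta and BMP genes were past the upper fold and 1 past the lower, against none over all members. In the Coch-rich cells of ACD, Igfbp6 was at 214 and Pcolce2 at 28.2, far below their levels in the Mfap5-positive cells, 1603 and 521. Without the Coch-rich and Angptl7/Chad-rich members the median of the progenitor list was -0.34 with 1 of 33 genes past the upper fold and none past the lower. Within the Mfap5-positive cells Pcolce2 had a log2 ratio of -0.90 (-1.02 to -0.79) and Igfbp6 one of -0.78 (-0.84 to -0.71).

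The same comparison was made in the other fibroblast selections, which share the libraries with the members. By the limits given above, they comprised 112 control and 29 ACD cells with Gdf10 or C7, and 743 control and 211 ACD cells with Cyp2f2. The interferon-linked genes were higher in all 3. H2-K1 had log2 ratios of 3.07 in members, 2.61 (2.38 to 2.85) in Gdf10- or C7-positive cells and 3.19 (3.12 to 3.27) in Cyp2f2-positive cells. Iigp1 had log2 ratios of 6.02, 6.56 (4.96 to 8.86) and 8.31 (7.50 to 9.27). Saa3 reached a level of 1582 in ACD members, 462 in Gdf10- or C7-positive cells and 1565 in Cyp2f2-positive cells.

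For the genes below, counting intervals also lay apart between selections, as they did for H2-K1. These intervals leave out the spread between cells and between animals. Timp1 had a log2 ratio of 2.73 (2.53 to 2.94) in members, 0.18 (-0.42 to 0.76) in Gdf10- or C7-positive cells and 1.92 (1.77 to 2.07) in Cyp2f2-positive cells. Lcn2 had one of 5.77 (5.15 to 6.46), 0.20 (-2.32 to 2.20) and 5.93 (5.21 to 6.75). Cxcl12 had one of 0.55 (0.45 to 0.65) in members and 1.68 (1.55 to 1.80) in Cyp2f2-positive cells. Postn differed too, at -1.44 in members and -0.40 (-0.44 to -0.36) in Cyp2f2-positive cells, as did Col1a1 at -0.88 (-0.90 to -0.86) and -0.24 (-0.26 to -0.23), although Col1a1 turned to 0.27 in the Cyp2f2-positive cells with every cell thinned to 3000 UMIs. With 1 library per group these differences were not tested.

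**Figure D5:**
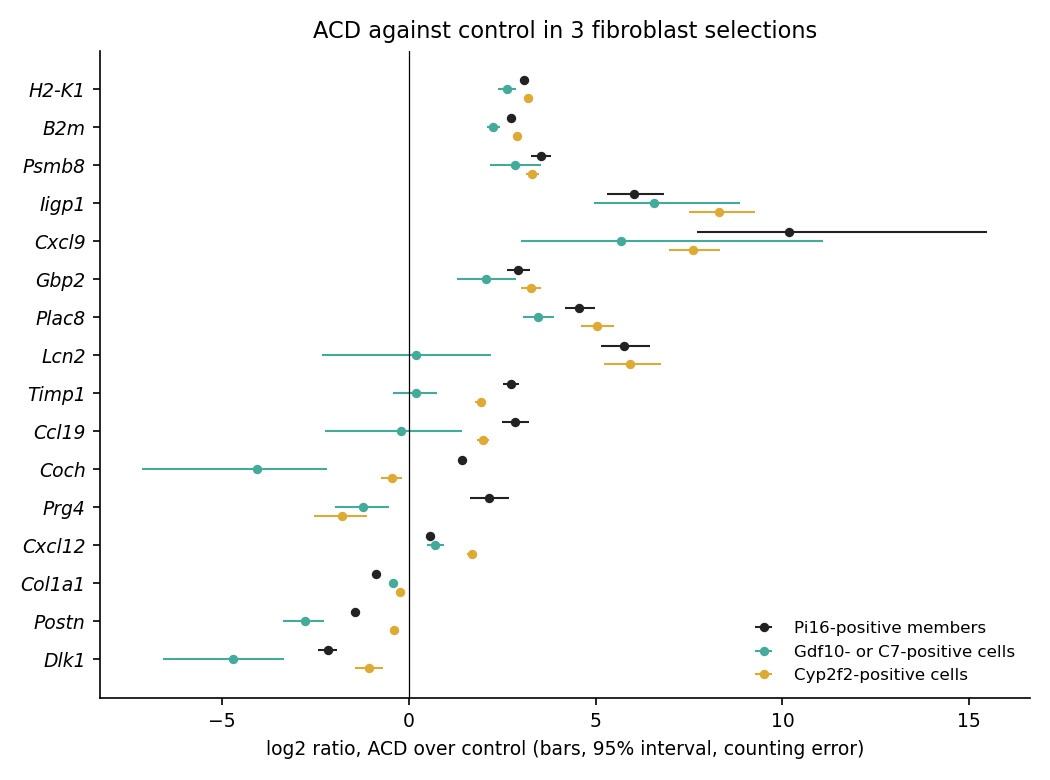
Log2 ratio of ACD over control for 16 genes in the Pi16-positive members, the Gdf10- or C7-positive cells and the Cyp2f2-positive cells. Points are log2 ratios of UMIs per 1000000 and lines their 95% intervals for counting error. Class I and GTPase genes lie above 0 in all 3 selections. Of the 3 selections, Coch and Prg4 lie above 0 in the members alone, but Coch was also higher in ACD in the pool of all other Pdgfra-positive cells.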

How the data were processed

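The authors deposited raw UMI counts per gene and barcode, made with Cell Ranger (3.1.0 in the submitters' processing notes) on mm10; these counts were used as deposited, with rows of 1 symbol summed (27998 rows, 27933 symbols). All columns were mapped to samples. Barcodes were kept if they had over 200 and under 5000 genes, no more than 25000 UMIs, and a mitochondrial share under 8%, leaving 12213 of 12895 in control and 11665 of 13163 in ACD, more than the study states. The study's UMI limit was read as an upper one. No doublets were removed in the main analysis. As an alternative, Scrublet in scanpy 1.11.5 called 583 control and 413 ACD barcodes, 28 and 6 of them members. Library totals were 92188895 and 99649023 UMIs over kept barcodes. UMIs were summed over the members of each library, and intervals are at the 95% level, for counting error only. Each group is 1 library, so no p-value was computed.

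Genes named are those of the rule and the markers, the 12 highest and 12 lowest damped log2 ratios, the 8 largest gains and losses, up to 5 genes per list, the 10 genes highest in members over other Pdgfra-positive cells, and the cytokine receptors and ligands of the lists. Angptl7, Chad, Cd34, Clec3b, Ly6a, Ifit2, Eif2ak2, and the 3 subset gates were chosen after their values were seen. The members and lists were chosen with earlier results of these data known. The counting procedure was tested on simulated data. Gene positions are from GENCODE M21 (27645 of 27998 identifiers found) and promoter windows from RefSeq on GRCm38.p6. Near-identical genes (class I heavy chains, Ccl19, Ccl21a, Hba-a1) may share reads. Python 3.11.15, numpy 2.4.6, scipy 1.17.1 and pandas 2.3.3 were used. Results on 1 item of the lists are not reported here.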

Additional observations from a re-analysis of the deposited data

Results flagged for a closer look

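The differences below rest on 1 library per group and were not tested. On the damped log2 scale, the ratio of ACD over control was larger in the Pi16-positive members than in Cyp2f2-positive cells by 5.345 for Ccl3 and by 5.561 for Ccl4, with opposite signs in the 2 selections. In the members, 96.4% of the ACD UMIs of Ccl3 and 91.8% of those of Ccl4 were in 5 cells. Against Gdf10- or C7-positive cells the difference was 4.318 for Coch and 2.539 for Prg4, again with opposite signs, and those cells numbered 29 in ACD.

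Barcodes that met the gene rule but not the limits on genes, UMIs and mitochondrial share numbered 14 in control and 48 in ACD, 43 of the latter with over 25000 UMIs. In ACD they held Saa3 at 2184 and Cxcl9 at 705.8 UMIs per 1000000, and in control neither gene had a UMI in them.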

How the results depend on the processing

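No paired analysis was possible because each group has 1 library and no result comes from a test. Of 131 values that answer a comparison, 109 kept their size under the alternatives and 22 moved. With every cell thinned to 3000 UMIs, 40 genes were past the fold higher, with 1 of 4 CXC chemokines, 1 of 1 GTPases, 8 of 10 class I, 3 of 7 acute-phase, 3 of 7 antiviral and 3 of 10 complement genes still measured, and the log2 ratio of the member share was -0.49. With a Dpp4 UMI also required, 100 control and 63 ACD members were left. Then 53 genes were lower, 3 of 3 measured GTPases and 4 of 10 antiviral genes were higher, and the share was -0.60. Without cells carrying markers of other classes, 6 of 6 GTPases and 6 of 10 acute-phase genes were higher and the share was -0.44. With at least 200 UMIs per gene, 6 of 6 GTPases and 6 of 10 antiviral genes were higher. Alternatives that change the cells or the UMI minimum also change the number of measured genes. The shares of genes past the fold under them are not given here. Their counts therefore cannot be set directly beside the 102 higher and 31 lower of 9358 in the main analysis. With 1 UMI per 1000000 added, 191 genes were higher and 82 lower. The share was 0.52 among Pdgfra-positive, Ptprc-negative barcodes, 0.36 among Ptprc-negative barcodes and -0.62 without the Coch-rich and Angptl7/Chad-rich members, an alternative chosen after seeing the data, as was leaving out 5 members per gene.

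Among values of single genes, 1944 kept their size, 530 moved and 34 changed sign; the cause was not tested. Log2 ratios that changed sign became, with the 5 highest members left out, 0.29 for Hba-a1, 0.087 for Hbb-bs, 2.61 for Ccl21a and 0.54 for Dct. With Dpp4 required they became 1.10 for Hba-a1, 0.49 for Hbb-bs, 3.40 for Ccl21a, 0.23 for Rgs5 and 0.41 for Dlk1. Without cells carrying markers of other classes they became -0.34 for Ccl2, -0.33 for Cxcl12, -0.48 for Il6, -0.028 for Ly6a, 0.87 for Dct, 1.13 for Col2a1, 0.30 for Hba-a1 and 3.72 for Ccl21a, and in Cyp2f2-positive cells 0.12 for Coch and 0.55 for Dlk1. With thinning they became 0.39 for Sema3c, 0.27 for Wnt2, -0.32 for Il6, 0.50 for Hbb-bs, 0.69 for Hba-a1 and 0.027 for Col3a1, and 0.27 for Col1a1 in Cyp2f2-positive cells. With all deposited barcodes they became 0.29 for Dct and 0.82 for Ccl21a, 0.029 for Col1a1 in Gdf10- or C7-positive cells and 0.56 for Prg4 in Cyp2f2-positive cells. Without Scrublet calls they became 0.39 for 3110079O15Rik and 2.53 for Ccl21a, with Pi16 at 5 UMIs or more 0.057 for Dct, and without the Coch-rich and Angptl7/Chad-rich members 0.71 for Col2a1. Median-of-ratios scaling shifted all log2 ratios by 0.07.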

Other observations

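The 28 cytosolic ribosomal protein genes were all slightly above 0 in the ACD members, with a median damped log2 ratio of 0.23 and none past the fold, and summed to 73131 UMIs per 1000000 in control and 87209 in ACD. Of 7 measured cell-cycle genes none passed the fold, with a summed level of 142 in control and 178 in ACD. None of 23 oxidative-stress genes, 24 hypoxia and glycolysis genes, 27 TGF-beta and BMP genes or 23 elastic-fibre genes passed the fold. Among 16 genes of committed preadipocytes 1 was higher and 1 lower, the latter being Dlk1.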
